A study of Mus musculus with 1920 samples.

Results

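The cells described here were 171 microglia-gated cells taken from the facial nucleus of mice 14 days after the facial nerve had been cut, divided by how much Apoe mRNA each cell held. They are 171 of the 1644 cells of the series that passed the same quality thresholds. The cells were chosen by their measured Apoe counts: a cell was Apoe-positive when it held at least 100 CPM of Apoe (CPM, counts scaled to the same total of gene counts in each cell, spike-ins left out), and Apoe-negative otherwise. This gave 41 positive and 130 negative cells: 7 and 33 in mouse 1, 3 and 44 in mouse 2, 16 and 28 in mouse 3, and 15 and 25 in mouse 4. Since Apoe chose the classes, its own levels are a description, and Apoe was left out of all tests.

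Single cells were sorted into 384-well plates and sequenced with Smart-seq2, a full-length method that counts reads without molecular identifiers. The sort used antibodies to CD11b, CD45, Ly6C, Ly6G and CD206, so the gate itself limits which cells could appear. The mice were of the CD1 strain, aged 16 weeks, and the labels give 4 replicate mice per condition. Besides the day 14 mice, the text uses CD1 mice at day 3 after the same axotomy (168 cells passing the thresholds) and the facial nucleus of untreated CD1 mice (161 cells). Cells of untreated cortex, hippocampus, cerebellum, corpus callosum and spinal cord, and control wells of the plate from cuprizone-fed mice, are used only beside these. The sample labels give the tissue as facial nerve, while the source labels give the facial nucleus.

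Apoe encodes apolipoprotein E, a secreted lipid carrier that loads cholesterol and phospholipid through ABC transporters and delivers them to cells through receptors at their surface. In models of neurodegeneration and demyelination it is a known marker of microglia that take up debris, alongside lysosomal, lipid-handling and, in some cells, interferon-response genes. After a cut of the facial nerve the motor neuron bodies in the facial nucleus are injured at a distance, with the blood-brain barrier largely intact, and the microglia around them proliferate and wrap the injured cells.

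The 171 cells held 32409 to 507232 gene counts each. Positive cells had a median of 208001 gene counts and 2742 genes, and negative cells 139697 gene counts and 2732.5 genes, and the positive cells were the deeper class in 3 of the 4 mice but not in mouse 2 (medians of 119436 and 127357 gene counts). Each mouse filled its own 3 columns of the plate, so mouse and plate position cannot be told apart. The class sums behind the tests held from 432235 counts (3 positive cells of mouse 2) to 7068308 counts (25 negative cells of mouse 4), with Apoe left out. The sum of mouse 2's positive cells is the thinnest measurement here, and it also took the scaling factor farthest from 1, at 1.55 by the trimmed mean of M values (TMM) against 0.815 to 1.11 in the other 7 sums.

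Apoe itself was spread over almost 3 orders of magnitude among the positive cells, from 106 to 68279 CPM with a median of 1042 CPM. Of the 171 cells, 83 had 0 Apoe reads, 47 had some reads but fewer than 100 CPM, 20 had 100 to 1000 CPM and 21 had 1000 CPM or more. The 3 cells just below the threshold held 43.2, 51.4 and 61.7 CPM, and the 3 just above it 106, 116 and 240 CPM. The mice differed in how high their positive cells reached. The median among positive cells was 6665 CPM in mouse 1 and 3721 CPM in mouse 3, but 574 CPM in mouse 2 and 596 CPM in mouse 4. All 7 positive cells of mouse 1 and 10 of the 16 of mouse 3 lay at 1000 CPM or more, against 0 of 3 in mouse 2 and 4 of 15 in mouse 4. The share of positive cells was 17.5% in mouse 1 (95% Clopper-Pearson interval 7.34 to 32.8%), 6.38% in mouse 2 (1.34 to 17.5%), 36.4% in mouse 3 (22.4 to 52.2%) and 37.5% in mouse 4 (22.7 to 54.2%), which is 24.4 ± 15.1% (SD, n = 4 mice). These intervals cover counting error only. With every cell thinned to 20000 counts, 43 cells passed the threshold in place of 41. The 4 empty control wells of the same plate held 0 Apoe reads among 2365 gene counts, which allows a level of up to 1268 CPM (3 counts), so they are too shallow to bound a low Apoe background.

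**Figure D1:**
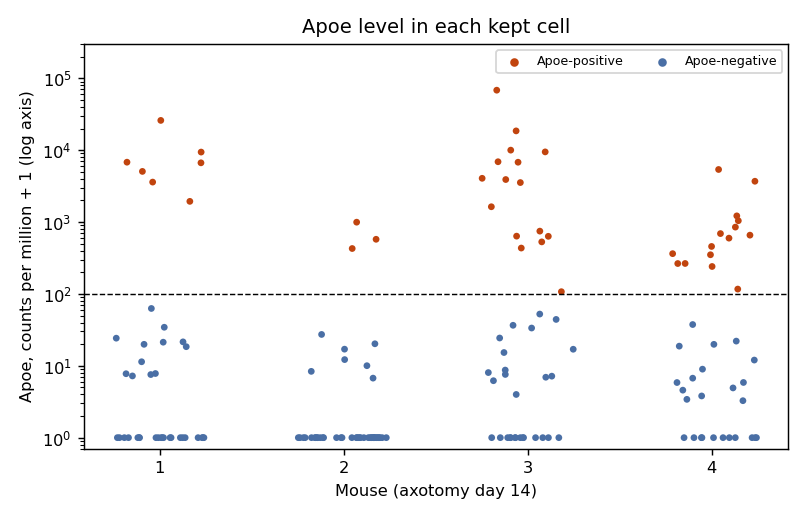
Each point is 1 of the 171 cells, by mouse on the x axis, with Apoe in CPM plus 1 on a logarithmic y axis; red points are Apoe-positive, blue points Apoe-negative, and the dashed line is the threshold of 100 CPM. The positive cells of mice 1 and 3 reach 25931 and 68279 CPM, and those of mice 2 and 4 reach 994 and 5381 CPM.

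Lyz2 was the gene that rose with Apoe. Lyz2, on chromosome 10 (chr10:117277334-117282274, minus strand, GRCm38), encodes lysozyme, a bacteria-digesting enzyme of macrophage lysosomes that is used as a myeloid marker and is scarce in resting microglia. Its level in the positive cells of mice 1 to 4 was 3589, 201, 1503 and 246 CPM after TMM scaling (scaled CPM), and in the negative cells 134, 73.4, 169 and 25.6 scaled CPM. The classes did not overlap: the lowest positive sum lay above the highest negative sum, and Lyz2 was higher in 4 of 4 mice. The means were 1385 ± 1589 and 100.5 ± 63.8 scaled CPM (SD, n = 4 mice). The paired log2 fold change was 3.16 ± 0.65 (SE), and edgeR's quasi-likelihood test with mouse as a block gave an adjusted p of 0.0243 (Benjamini-Hochberg over 18874 genes). It was the 1 gene called higher, 0.0053% of the genes tested, and 0 genes were called lower (0.0%). At an unadjusted p under 0.05 edgeR gave 69 genes higher and 801 lower. DESeq2 on the same sums gave 13019 genes an adjusted p and called 68 higher and 652 lower at 0.05. Of its 68 higher genes, 33 had 0 counts in at least 3 of the 4 negative sums. Among its called genes, 1 of the higher and 57 of the lower were detected in at least 20% of cells.

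Lyz2 was not a gene of every positive cell. Reads were found in 23 of 41 positive and 40 of 130 negative cells. The cells with reads numbered 6 of 7, 1 of 3, 9 of 16 and 7 of 15 positive cells in mice 1 to 4, and 15 of 33, 13 of 44, 10 of 28 and 2 of 25 negative cells. With each cell thinned to 20000 counts the shares were 46.3% and 18.5%, but the fit on thinned counts did not call Lyz2 (log2 fold change 2.52, adjusted p = 0.456 in edgeR). A single cell supplied 35.5% of all positive Lyz2 reads. Lyz1, a neighbouring near-identical gene whose reads could be shared with Lyz2, had reads in 2 positive cells. The call was lost in 13 of 20 alternatives, among them without mouse 1 (adjusted p = 1), mouse 3 (0.734) or mouse 4 (0.74) and without the cell with the highest Apoe value of each mouse (log2 fold change 1.22, adjusted p = 0.855), while without mouse 2 it was 3.67 with an adjusted p of 6.465e-07 in edgeR's test. Without the mouse block the adjusted p was 0.324, and with upper-quartile scaling 0.573.

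The level of Lyz2 by Apoe range is given with no test. Summed over cells of one Apoe range, Lyz2 stood at 53.1, 155, 208 and 1619 CPM in cells with 0 Apoe reads, under 100 CPM, 100 to 1000 CPM and 1000 CPM or more of Apoe. Within mice the same 4 ranges gave 51.1, 279.9, 406 and 1589.5 CPM in mouse 3, and 42.7, 0.301, 147 and 335 CPM in mouse 4. Mouse 1, with no cell between 100 and 1000 CPM, gave 39.7, 314 and 3082 CPM for the other 3 ranges, and mouse 2, with no cell above 1000 CPM, gave 66.8, 118 and 308 CPM for its 3. The highest range held the highest Lyz2 in each of the 4 mice, and mouse 4 broke the order below it.

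**Figure D2:**
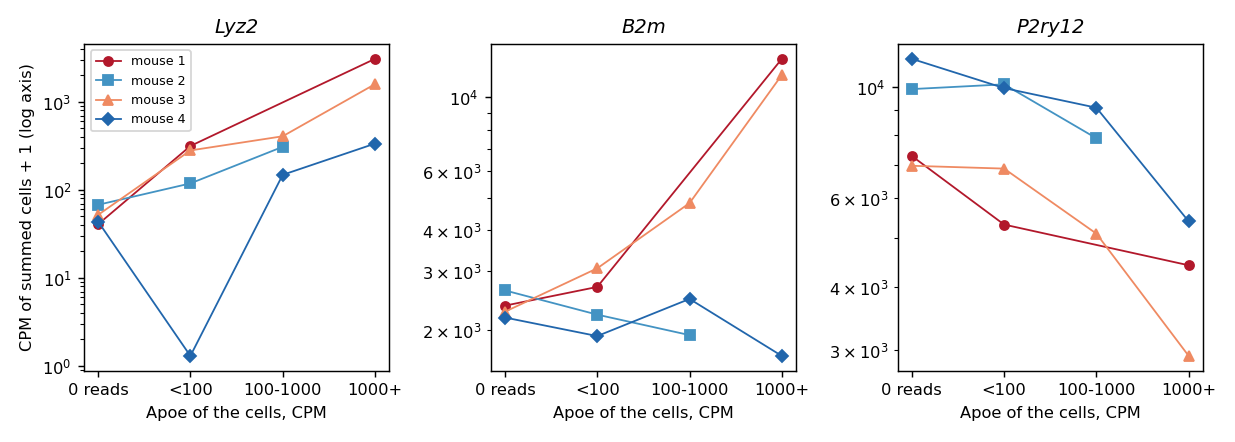
Lyz2, B2m and P2ry12 in CPM plus 1 (logarithmic y axes) in cells summed by their Apoe range (x axis), with a line for each mouse. Lyz2 is highest in the highest Apoe range of each mouse, B2m reaches 13052 and 11674 CPM in the highest range of mice 1 and 3, and P2ry12 is lowest in the highest range of each mouse.

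A further 9 genes made up the 10 with the smallest unadjusted p among those with higher sums in positive cells, and edgeR's test called 0 of these 9. Cd83, a surface immunoglobulin-family protein of activated antigen-presenting cells, came closest. Its positive sums were 1031, 569.6, 3304 and 268 scaled CPM and its negative sums 48.5, 99.2, 374 and 119.7 scaled CPM. Cd83 was higher in 4 of 4 mice, with overlapping classes, at a log2 fold change of 2.81 ± 0.65 (SE) and an adjusted p of 0.146 in edgeR's test. Reads of Cd83 were found in 16 of 41 positive and 30 of 130 negative cells, or 39% and 13.1% after thinning. It passed the threshold with thinned cells (adjusted p = 0.00853 in edgeR), without mouse 2 (0.00295), by library size alone (0.0314) and with positives set at 1000 CPM of Apoe (0.0322). A single cell held 45.8% of its positive reads. Fxyd5, a regulator of the sodium pump and of cell adhesion, stood at 376, 96.7, 284 and 75.5 against 11.5, 20.6, 10.3 and 0.159 scaled CPM without overlap, but in 9 of 41 and 9 of 130 cells and with 50.2% of its positive reads in 1 cell, with a log2 fold change of 4.98 ± 1.75 (SE) and an adjusted p of 0.807 in edgeR's test. Dgat2, which makes triglyceride for lipid droplets, was measured at 265, 6.04, 113 and 25 against 0.449, 1.57, 0 and 0 scaled CPM, with reads in 9 of 41 positive and 4 of 130 negative cells. Ccl2, a chemokine that draws in monocytes, was found in 8 of 41 positive and 2 of 130 negative cells, and 1 cell held 53.1% of its positive reads. The mitochondrial ribosomal RNA mt-Rnr2 was at 9753, 1887, 4903 and 6926 against 1959, 2916, 2648 and 3228 scaled CPM, with a log2 fold change of 0.93 ± 0.32 (SE) and an adjusted p of 0.807 in edgeR's test. Zfp459 and Gstt3 had reads in 5 and 4 positive cells. The other 2 of the 9, B2m and Ctss, are abundant and are described next.

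B2m and the classical MHC class I heavy chains H2-D1 and H2-K1, which B2m joins to present peptides at the cell surface, separated the mice into those with and those without a large class difference. B2m was measured at 15197, 1260.2, 11564 and 2782 scaled CPM in the positive cells of mice 1 to 4 and at 2279.8, 2592, 2636 and 2311 scaled CPM in their negative cells. The negative sums lay close together in all 4 mice, the positive sums of mice 1 and 3 lay far above them, that of mouse 4 lay just above and that of mouse 2 below. H2-D1 was also far higher in the positive cells of mice 1 and 3, but lower in those of mice 2 and 4, with 6869.6, 225, 5077 and 567 scaled CPM in positive and 652, 917, 761 and 641 scaled CPM in negative cells. H2-K1 stood at 2215, 72.5, 2462 and 244 against 385, 279.9, 350.1 and 389 scaled CPM. H2-D1 and H2-K1 are close copies of each other, so reads may be divided between them uncertainly. The paired log2 fold changes were 1.05 ± 0.32 (SE) for B2m, 1.06 ± 0.51 (SE) for H2-D1 and 0.72 ± 0.69 (SE) for H2-K1, with adjusted p-values of 0.807, 0.807 and 0.846 in edgeR's test, so these were not called over the 4 mice. Without mouse 2 the B2m and H2-D1 differences passed the threshold (adjusted p = 0.000161 and 0.00459 in edgeR's test), and H2-K1 changed sign without mouse 1 or mouse 3. With positives set at 1000 CPM of Apoe, which leaves out mouse 2, B2m and H2-D1 also passed (log2 fold changes 1.63 and 2.06, adjusted p = 0.0136 and 0.0315 in edgeR). With upper-quartile scaling B2m was higher in 4 of 4 mice, so the direction in mouse 2 depends on the scaling.

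Cell by cell, B2m reads were present in 41 of 41 positive and 130 of 130 negative cells. In mouse 1 the positive cells held 3606 to 22409 CPM of B2m with a median of 6735, and the negative cells up to 5954 with a median of 2386; 5 of the 7 positive cells lay above the highest negative cell. In mouse 3 the medians were 6929 and 2475 CPM, and 11 of 16 positive cells lay above the highest negative cell at 5088 CPM. In mouse 4 the medians were 1904 and 1833 CPM and 1 of 15 positive cells passed the highest negative cell at 4499 CPM. In mouse 2 the 3 positive cells held 1066, 2069 and 3922 CPM, within the negative range of 85.7 to 6243. H2-D1 gave 5 of 7 and 11 of 16 positive cells above the highest negative cell in mice 1 and 3, and 0 of 3 and 0 of 15 in mice 2 and 4. The 4 cells of mouse 4 with 1000 CPM or more of Apoe had a median B2m of 1684 CPM, within the range of that mouse's negative cells, and 0 of the 4 lay above the highest of them.

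**Figure D3:**
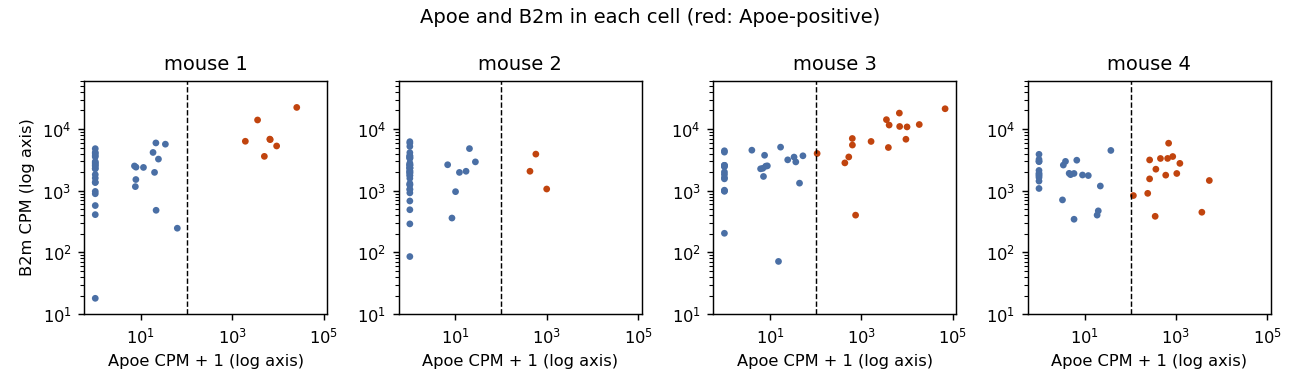
Each panel is a mouse and each point a cell, with Apoe CPM plus 1 on the x axis and B2m CPM on the y axis, both logarithmic; red points are Apoe-positive and the dashed line is the threshold of 100 CPM. In mice 1 and 3 the positive cells sit above most negative cells, with medians of 6735 and 6929 CPM, and in mice 2 and 4 they lie among them.

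Because B2m, H2-D1, H2-K1 and Ctss were high in the same cell sums, their promoters are shown, each 300 bases long from RefSeq (GRCm38.p6), running from 250 bases before the gene start to 50 after it, 5′ to 3′ on the gene's strand. Capitals mark matches, on either strand, to GAAANNGAAA, the core of the interferon-stimulated response element, or to GGGATTCCC, the palindrome-like core of the kappa B site of class I genes. They lie at chr2:122147437-122147736 (plus strand, B2m), chr17:35262844-35263143 (plus strand, H2-D1), chr17:34000298-34000597 (minus strand, H2-K1) and chr3:95526536-95526835 (plus strand, Ctss).
B2m: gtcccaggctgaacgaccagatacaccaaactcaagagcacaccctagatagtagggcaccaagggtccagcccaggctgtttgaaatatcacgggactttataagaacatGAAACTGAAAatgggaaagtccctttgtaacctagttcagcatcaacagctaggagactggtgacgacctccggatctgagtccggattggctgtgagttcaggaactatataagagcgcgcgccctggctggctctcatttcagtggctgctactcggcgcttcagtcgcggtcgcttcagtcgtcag
H2-D1: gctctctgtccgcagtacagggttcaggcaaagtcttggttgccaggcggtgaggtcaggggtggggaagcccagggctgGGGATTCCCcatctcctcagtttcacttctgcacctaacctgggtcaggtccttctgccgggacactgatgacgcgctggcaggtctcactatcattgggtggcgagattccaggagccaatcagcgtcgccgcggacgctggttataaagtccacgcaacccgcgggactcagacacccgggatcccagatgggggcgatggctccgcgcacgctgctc
H2-K1: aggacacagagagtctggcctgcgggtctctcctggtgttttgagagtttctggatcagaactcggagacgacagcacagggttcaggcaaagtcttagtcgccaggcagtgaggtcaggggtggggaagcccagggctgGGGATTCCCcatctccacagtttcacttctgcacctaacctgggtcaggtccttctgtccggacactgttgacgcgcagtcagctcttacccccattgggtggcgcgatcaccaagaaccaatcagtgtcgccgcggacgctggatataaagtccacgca
Ctss: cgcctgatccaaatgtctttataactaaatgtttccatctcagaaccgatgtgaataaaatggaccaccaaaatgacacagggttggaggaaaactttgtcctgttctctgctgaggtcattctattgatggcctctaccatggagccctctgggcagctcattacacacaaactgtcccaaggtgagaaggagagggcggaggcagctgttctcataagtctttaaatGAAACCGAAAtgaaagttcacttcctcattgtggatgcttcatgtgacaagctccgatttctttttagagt
GAAANNGAAA was found in B2m, beginning 139 bases before the start, and in Ctss, 21 bases before it. GGGATTCCC was found in H2-D1 and in H2-K1, beginning 170 and 110 bases before the start. Of all 32851 RefSeq promoters of this length, 3.44% hold the first string and 0.353% the second. A match describes these letters and says nothing on whether a factor bound there. The search took exact strings only and misses variants of either element. The lack of a marked match therefore does not show that a promoter lacks the element, and these genes are not divided by it.

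**Figure D4:**
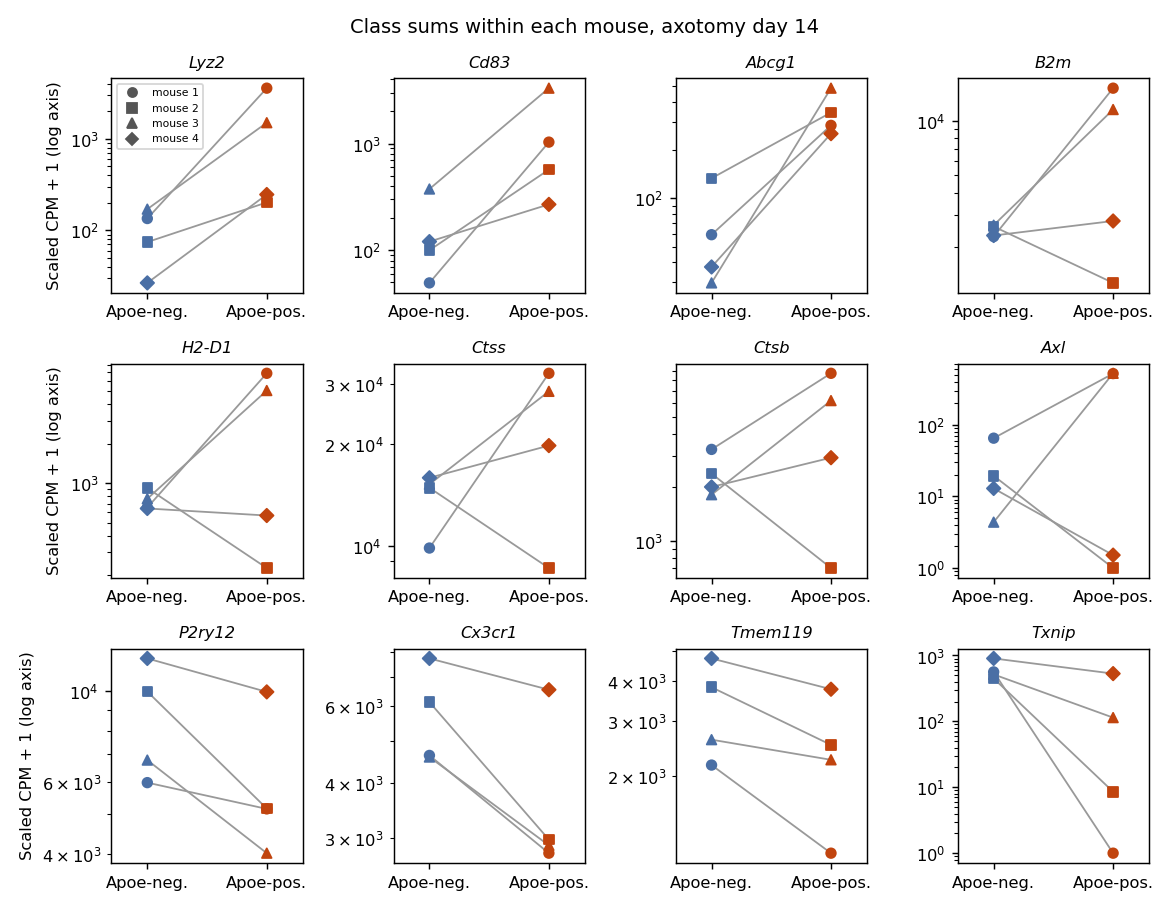
Scaled CPM plus 1 (logarithmic y axes) of 12 genes in the summed Apoe-negative (blue) and Apoe-positive (red) cells of each mouse, with a line joining the classes of a mouse and a marker shape for each mouse. Lyz2, Cd83 and Abcg1 rise along every line, and B2m, H2-D1, Ctss, Ctsb and Axl are high in the positive cells of mice 1 and 3.

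The wider class I and interferon lists followed the same division between mice. The 19 class I genes (heavy chains, B2m and the peptide-loading machinery) summed to 22469.7, 3658, 19079 and 3824 CPM in the positive cells of mice 1 to 4 and to 4364, 4639, 4731 and 3696 CPM in the negative cells, so positive cells held 5.15 and 4.03 times the negative level in mice 1 and 3, and 0.788 and 1.03 times in mice 2 and 4. Among the 12 members detected in at least 20% of cells the median log2 fold change was 1.00, beside -0.62 for all 3855 such genes, and 0 of 19 were called. The 30 interferon-response genes summed to 4689.6, 349, 13937 and 369 CPM in positive cells and 697, 545, 811 and 391 CPM in negative cells. Their ratios were 6.73, 0.641, 17.2 and 0.943, and 0 of the 29 tested were called. Over these 29 the median log2 fold change was 2.02, beside -1.87 for all tested genes. Only 5 of them were detected in at least 20% of cells, at a median of -0.21, beside -0.62 for all genes so detected. Ifitm3, a membrane protein that blocks virus entry, was measured at 181, 0, 376 and 1.03 against 6.07, 0, 0.674 and 0 scaled CPM and was found in 8 of 41 positive and 6 of 130 negative cells. Ccl12, a chemokine often induced with interferon genes, stood at 1072, 0, 3531 and 0.773 against 49.2, 10.4, 11 and 51 scaled CPM, and 1 cell held 63.6% of the positive reads. Irf7, a transcription factor that amplifies the interferon response, was chosen after its values were seen: it stood at 629, 0, 317 and 9.27 against 0.449, 0.157, 21.3 and 0.159 scaled CPM, and passed without mouse 2 (adjusted p = 0.00981 in edgeR). The height of Apoe differs between the mice in the same way as these lists, as given above, and its part in them was not tested.

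Genes of the disease-associated microglia programme, the set that microglia raise around plaques and degenerating tissue, were not called apart from Lyz2 (1 of 34 tested). The 35 genes of this list in the table summed to 65278, 21060.3, 48693 and 23994 CPM in positive cells and 26136, 22877, 20639 and 20765 CPM in negative cells, with high values again in mice 1 and 3. Of the 22 detected in at least 20% of cells, 3 were higher in all 4 mice (Lyz2, Ctsl and Cd9) and 1 lower (Cd84), beside 3.09% higher and 11.9% lower among all 3855 genes so detected. With upper-quartile scaling 11 of the 22 were higher in all 4 mice (all genes 10.8%), and by library size alone 4 (all genes 2.93%). Trem2 and its adaptor, the receptor pair at the head of the programme, were not called. Trem2, which binds lipids and apolipoproteins, stood at 1834, 389.8, 1195 and 944 against 1367, 827, 1042 and 1084 scaled CPM (log2 fold change -0.16 ± 0.50 (SE)), higher in mice 1 and 3 and lower in mice 2 and 4. The adaptor Tyrobp stood at 2538, 1706, 2464 and 2502 against 1495, 2096, 1471 and 1419 scaled CPM (log2 fold change 0.51 ± 0.40 (SE), adjusted p = 0.807 in edgeR's test), higher in 3 of 4 mice after TMM scaling and in 4 of 4 by upper quartile or library size alone. Cd9, a tetraspanin, stood at 854, 452, 1357 and 992 against 799, 444, 626 and 499 scaled CPM (log2 fold change 0.56 ± 0.58 (SE)), higher in 4 of 4 mice by TMM and in 3 by library size alone.

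Of the other markers of that programme, 5 were found in at most 13 cells of either class. Itgax was found in 5 of 41 positive and 6 of 130 negative cells, Clec7a in 3 of 41 positive and 3 of 130 negative cells, Cst7 in 5 of 41 positive and 4 of 130 negative cells and Lgals3 in 4 of 41 positive and 1 of 130 negative cells. Lpl, the lipoprotein lipase, was found in 2 of 41 positive and 13 of 130 negative cells. Spp1, which encodes osteopontin, was found in 12 of 41 positive and 2 of 130 negative cells, at 23.1, 0, 467 and 197 against 158, 0, 0 and 0 scaled CPM. Axl, a receptor for apoptotic cells that interferon can induce, stood at 518, 0, 522 and 0.515 against 64, 18.4, 3.37 and 11.9 scaled CPM. Axl was higher in mice 1 and 3 and lower in mice 2 and 4, and its fitted log2 fold change of -0.01 ± 0.67 (SE) lies between these opposite values. Reads of Axl were found in 15 of 41 positive and 20 of 130 negative cells.

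Lysosomal proteases were not called. Ctss, the cathepsin that trims the class II invariant chain, stood at 32345, 8605, 28609 and 19785 scaled CPM in positive and 9859, 14852, 15212 and 15896 scaled CPM in negative cells, a log2 fold change of 0.54 ± 0.19 (SE) with an adjusted p of 0.807 in edgeR's test. It passed the threshold without mouse 2 (log2 fold change 0.95, adjusted p = 0.00819 in edgeR). Ctsb stood at 8766, 701, 6152 and 2935 against 3268, 2389, 1815 and 2008 scaled CPM (log2 fold change 0.57 ± 0.35 (SE)), and Ctsd at 15403, 2730.4, 9728 and 7404 against 5796, 5636, 4931 and 7403 scaled CPM (log2 fold change 0.35 ± 0.26 (SE)). The 3 cathepsins were highest in the positive cells of mice 1 and 3 and were lower in positive than negative cells in mouse 2, where Ctss and Ctsb were higher instead with upper-quartile scaling. Ctsl stood at 1592, 1103, 1304 and 1176 against 878, 678, 700.2 and 901 scaled CPM without overlap (log2 fold change 0.71 ± 0.50 (SE)). Cd63, a tetraspanin of late endosomes, stood at 604, 49.9, 323 and 146 against 64, 77.2, 48.1 and 50.1 scaled CPM (log2 fold change 1.80 ± 1.26 (SE)), with reads in 30 of 41 positive and 44 of 130 negative cells. Cd68, a lysosomal membrane protein, stood at 785, 562, 1240.3 and 977 against 883, 597, 447 and 1025 scaled CPM. Cd68 was lower in 3 of 4 mice by TMM. It was higher in 3 by upper quartile and in 2 by library size alone. Of the 33 lysosomal genes detected in at least 20% of cells, 4 were higher in all 4 mice by TMM, among them Npc2, Lamp1 and Ctsl, and 1 was lower (Ctsf), beside 3.09% higher and 11.9% lower among all genes so detected. The number higher was 12 of 33 (36.4%) by upper quartile, where all genes gave 10.8%. By library size alone it was 2 of 33 (6.06%), where all genes gave 2.93%. The median log2 fold change was 0.33, beside -0.62 for all genes. Lamp1 and Ctsl were higher in 4 of 4 mice under the other scalings too. In edgeR's test 0 of 36 were called.

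Among genes that move lipid with apolipoprotein E, 12 were detected in at least 20% of cells. Of these, 2 were higher and 2 lower in all 4 mice, beside 3.09% and 11.9% of all genes so detected. The cholesterol exporter Abcg1 was 1 of the 2 higher. Its positive sums were 284, 341, 485 and 252 and its negative sums 58.4, 132, 28.8 and 36.4 scaled CPM, without overlap, at a log2 fold change of 2.62 ± 1.11 (SE) and an adjusted p of 0.807 in edgeR's test. Reads of Abcg1 were found in 22 of 41 positive and 31 of 130 negative cells, or 41.5% and 17.7% of thinned cells. In untreated mice, Abcg1 was higher in positive cells of 11 of 20 mouse and region pairs, at a median ratio of 1.00. The related exporter Abca1 stood at 33.7, 210.0, 200.4 and 291 against 70.1, 165, 87.6 and 209.7 scaled CPM with overlap. Npc2, which carries cholesterol out of the lysosome, was chosen after its values were seen: it stood at 2959, 1115, 1881 and 612 against 651, 616, 572 and 579.9 scaled CPM, higher in 4 of 4 mice by TMM and in 3 by either other scaling (log2 fold change 1.21 ± 0.51 (SE)). The receptor Lrp1 stood at 83.7, 25.7, 252 and 417 against 271, 216, 290.3 and 454 scaled CPM, lower in 4 of 4 mice. The 28 genes of this list summed to 7672, 6325, 6483 and 5025 CPM in positive and 5870, 5035, 4442 and 4339 CPM in negative cells. Without TMM scaling the list was thus higher in 4 of 4 mice. In mouse 2, 3 of the 12 detected members were higher by TMM. Over the 27 tested genes of this list 0 were called. The 25 cholesterol synthesis genes summed to 331, 474, 553 and 485 CPM in positive and 644, 586, 765 and 851 CPM in negative cells. These sums, without TMM scaling, were lower in 4 of 4 mice. The 22 members tested had a median log2 fold change of -1.82, close to the -1.87 of all tested genes. Of the 22, 2 were detected in at least 20% of cells and 0 were called.

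The neighbours of Apoe on the chromosome were found in few cells or at overlapping levels. Apoc1, on one side of Apoe, was found in 2 of 41 positive and 1 of 130 negative cells. Apoc4 was found in 0 of 41 positive and 5 of 130 negative cells and Apoc2 in 0 of 41 positive and 2 of 130 negative cells. Tomm40, on the other side, stood at 41.4, 7.55, 70.5 and 128 against 47.6, 16.2, 71.9 and 55.7 scaled CPM, Nectin2 at 29.8, 0, 351 and 7.21 against 16.6, 29.7, 36.4 and 49.6 scaled CPM and Clptm1 at 26, 0, 381 and 273 against 249, 84, 73.5 and 356 scaled CPM, with the classes overlapping in each. Bcam was found in 1 of 41 positive and 3 of 130 negative cells. Of the 5 neighbours tested, 0 were called.

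Of the 25 homeostatic microglial genes, 6 had lower scaled sums in the positive cells of all 4 mice, and edgeR's test called 0. By upper quartile 0 of 25 were lower and 4 higher in all 4 mice, beside 5.89% and 10.8% of all genes detected in at least 20% of cells. By library size alone 8 were lower and 0 higher, beside 14.3% and 2.93% of all genes so detected. P2ry12, the ADP receptor that guides microglial processes, stood at 5145, 5156, 4009.5 and 9943 against 5965, 9961, 6772 and 12004 scaled CPM (log2 fold change -0.55 ± 0.25 (SE), adjusted p = 0.807 in edgeR's test). Cx3cr1, the receptor for neuronal fractalkine, stood at 2762, 2968, 2879 and 6548 against 4628, 6135, 4589 and 7724 scaled CPM (log2 fold change -0.68 ± 0.29 (SE)). Tmem119, a microglia-specific membrane protein, stood at 1137, 2511, 2252 and 3773 against 2167, 3828, 2609 and 4726 scaled CPM (log2 fold change -0.52 ± 0.35 (SE)). Sall1, the transcription factor that holds microglial identity, stood at 136, 175, 203 and 666 against 325, 551, 414 and 721 scaled CPM, and the organic anion carrier Slco2b1, chosen after its values were seen, at 183, 326, 507 and 853 against 1168, 1299, 762 and 1729.5 scaled CPM (log2 fold change -1.56 ± 0.57 (SE)). These 5 were lower in 4 of 4 mice after TMM scaling. For P2ry12, Cx3cr1 and Tmem119 the fitted direction depends on the scaling. With upper-quartile scaling they had log2 fold changes of 0.33, 0.19 and 0.33. Under it P2ry12 and Cx3cr1 were lower in 2 of 4 mice, and Tmem119, Sall1 and Slco2b1 in 3. By library size alone P2ry12, Cx3cr1, Sall1 and Slco2b1 were lower in 4 of 4 and Tmem119 in 3. Slco2b1 kept a negative log2 fold change in each of its 20 alternatives (-2.07 to -0.69). Csf1r, the receptor microglia need to survive, stood at 6736, 4615, 5549 and 8634 against 4242, 5268, 5362 and 8919 scaled CPM (log2 fold change 0.12 ± 0.27 (SE)), higher in 2 mice and lower in 2.

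Across the 25 homeostatic genes the median log2 fold change was -0.38, above the -0.62 of all genes detected in at least 20% of cells, and 6 were lower in all 4 mice (Slco2b1, Cx3cr1, P2ry12, Gpr34, Tmem119 and Sall1), with 0 called. Genes named only in such counts were named after their values were seen. Upper-quartile scaling moved the class difference of the median gene by 0.70 on the log2 scale, which is larger than most of these changes. Under it, 10.8% of the detected genes were higher and 5.89% lower in all 4 mice, in place of 3.09% and 11.9%. P2ry12 in cells of rising Apoe range stood at 7279.9, 5322 and 4419 CPM in mouse 1 (3 ranges), 9882, 10098 and 7894 CPM in mouse 2 (3 ranges), 6962, 6872, 5106 and 2920.3 CPM in mouse 3 and 11346, 9927, 9076 and 5399 CPM in mouse 4. The TGF-beta pathway, which supports the homeostatic state, summed to 1452, 3142, 3558 and 2974 CPM in positive and 3788, 3516, 3147 and 3813 CPM in negative cells, with 0 of 15 called.

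**Figure D5:**
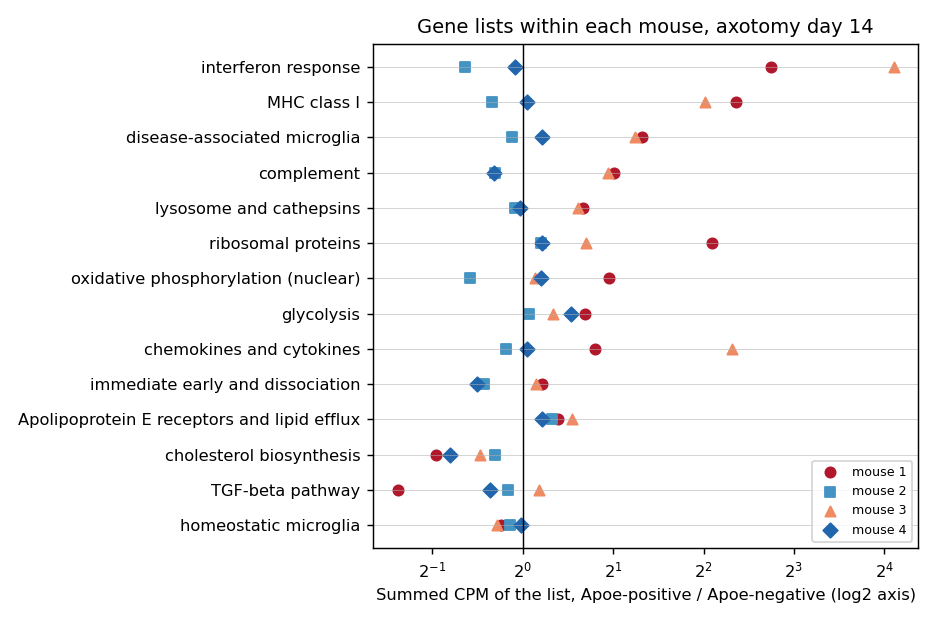
For each gene list, the ratio of its summed CPM in Apoe-positive cells to that in Apoe-negative cells of the same mouse, on a log2 axis, with a marker for each mouse. The interferon, class I, disease-associated, complement and lysosome lists lie right of 1 in mice 1 and 3 and near or left of 1 in mice 2 and 4.

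Genes with lower sums in positive cells were mostly sparse. The 10 with the smallest p were Txnip, Stx7, Pgrmc1, Sec24c, Usb1, Wdr73, Gm33148, Gm37099, Pfn2 and A230103L15Rik, and edgeR's test called 0 of them. Txnip, which restrains glucose uptake and thioredoxin, was the one found in many cells (24 of 41 positive and 92 of 130 negative cells, 39% and 58.5% after thinning). It stood at 0, 7.55, 113 and 529.9 against 562, 448, 515 and 901 scaled CPM, lower in 4 of 4 mice, at a log2 fold change of -4.20 ± 1.07 (SE) and an adjusted p of 0.545 in edgeR's test. Stx7, a late-endosomal fusion protein, stood at 0.962, 0, 601 and 345 against 276, 643, 358 and 891 scaled CPM (log2 fold change -4.27 ± 1.32 (SE), adjusted p = 0.807 in edgeR's test). Sec24c was found in 5 of 41 positive and 33 of 130 negative cells. Wdr73, Gm37099 and A230103L15Rik had 0 counts in all 4 positive sums, which allows levels of 0.769 to 4.49 scaled CPM (3 counts), and had reads in 12, 8 and 9 negative cells. Of the 801 lower genes with an unadjusted p under 0.05, 637 had 0 counts in at least 3 of the 4 positive sums, and of the 652 that DESeq2 called lower, 337 did. The median log2 fold change over all 18874 tested genes was -1.87.

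Other programmes differed in size or direction between mice. Ribosomal protein genes summed to 9057, 2878, 3778 and 2819 CPM in positive and 2117, 2510.4, 2332 and 2440.2 CPM in negative cells. The ratios were 4.28, 1.15, 1.62 and 1.16 in mice 1 to 4, without TMM scaling. Of the 32 members detected in at least 20% of cells, 5 (15.6%) were higher in all 4 mice by TMM and 1 (3.12%) lower. By upper quartile 16 (50%) were higher, and by library size alone 8 (25%). All genes so detected gave 3.09%, 10.8% and 2.93% higher. In mouse 2, 7 of the 32 were higher by TMM. Mitochondrially encoded mRNAs summed to 40386, 14795, 21364 and 23698 against 12616, 13936, 18077 and 12698 CPM. Their ratios were 3.20, 1.06, 1.18 and 1.87 without TMM scaling. In mouse 2, 1 of the 7 members detected in at least 20% of cells was higher by TMM. The 22 chemokine and cytokine genes summed to 4148, 2286, 12253 and 3468 against 2384, 2603, 2457 and 3355 CPM. Immediate early and dissociation genes, which rise when cells are handled warm, summed to 1817, 1312, 2588 and 1785 against 1568, 1772, 2332 and 2529.6 CPM. Complement genes summed to 22883, 11260.1, 21454 and 9882 against 11344, 13976, 11174 and 12274 CPM. In edgeR's test 0 genes of these 5 lists were called. Among class II genes, H2-Aa was found in 0 of 41 positive and 3 of 130 negative cells and the invariant chain Cd74 in 10 of 41 positive and 12 of 130 negative cells. Mki67, a marker of dividing cells, was found in 4 of 41 positive and 7 of 130 negative cells, and 1 cell held 89.6% of its positive reads.

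Markers of microglia were present in both classes, at summed levels of 36292 to 52729 CPM in positive and 43382 to 63264 CPM in negative cells. P2ry12 reads were found in 40 of 41 positive and 130 of 130 negative cells, and Csf1r reads in all 171. The 12 border macrophage markers summed to 27.8 to 139 CPM in positive and 106 to 209 CPM in negative cells; Cd163, F13a1, Ms4a7, Cbr2 and Cd38 had 0 counts in all positive sums, Mrc1 was found in 1 of 41 positive and 5 of 130 negative cells, and Pf4 in 1 of 41 positive and 3 of 130 negative cells. The 12 monocyte markers summed to 0 to 242 CPM in positive and 15.0 to 167 CPM in negative cells. Their ratios of positive to negative cells were 0.855, 0, 3.68 and 8.34 in mice 1 to 4. Reads of Ccr2 were found in 1 of 41 positive and 8 of 130 negative cells. By TMM Cd44 and Itgal were higher in positive cells of 3 of 4 mice. Ccr2, Fn1 and S100a4 were lower in 3 of 4, and 0 monocyte markers were detected in at least 20% of cells. The astrocyte list, a cell type that expresses Apoe strongly, summed to 52.9 to 670 CPM in positive and 146 to 274 CPM in negative cells, with ratios of 0.193, 1.71, 3.87 and 2.59. Its member Aqp4 was found in 1 of 41 positive and 5 of 130 negative cells. Gfap was found in 1 of 41 positive and 6 of 130 negative cells. Slc1a3, the 1 member detected in at least 20% of cells, was higher in positive cells of 3 mice by TMM. By either other scaling it was higher in 2 mice and lower in 2. Mbp, of myelin, was found in 7 of 41 positive and 12 of 130 negative cells. Neutrophil markers summed to 169 to 621 against 415 to 510 CPM, T and NK cell markers to 0 to 11.7 against 13.2 to 24.4 CPM, and B cell markers to 363 to 834 against 465 to 734 CPM. Oligodendrocyte markers summed to 190.1 to 616 against 254 to 472 CPM, precursor markers to 12.4 to 396 against 34.8 to 142 CPM, and neuronal markers to 53.5 to 523 against 41.2 to 177 CPM. Endothelial markers summed to 8.36 to 523 against 45.4 to 140.5 CPM (ratios of 3.12, 3.10, 10.7 and 0.184). Of these, Flt1 and Ly6a were higher in 3 of 4 mice by TMM, and Ly6c1 was higher in 1 and lower in 1. Pecam1 was lower in 4 of 4 mice, Kdr in 3 and Cldn5 in 2. In at least 20% of cells 0 endothelial markers were detected. Pericyte markers summed to 4.8 to 62.5 against 20.4 to 96.0 CPM, and erythroid genes to at most 0.826 against 4.38 CPM. The part of these cell types in the differences above was not tested.

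The same division by Apoe could be tested in 1 other facial nucleus group. Positive cells numbered 13 of 168 at day 3 (3, 6, 2 and 2 in mice 1 to 4), where 1 mouse had at least 5 cells in each class, and no test was run there because mice with fewer were left out of the comparison groups. That day 3 mouse had 6 positive and 39 negative cells. Its unscaled ratios of positive to negative level were 2.34 for Lyz2, 2.95 for Cd83, 1.38 for B2m and 1.51 for H2-D1. Those of H2-K1, Ctss, Axl, P2ry12 and Abcg1 were 1.65, 1.49, 7.99, 1.28 and 1.02. Cd63 and Tmem119 were lower, at 0.897 and 0.813. In the untreated facial nucleus positive cells numbered 11 of 161 (0, 6, 5 and 0), and the 2 mice with at least 5 cells in each class were fitted. Day 14 mouse 2, with 3 positive cells, was kept in the day 14 fit, so this minimum was not applied there. The share of positive cells was 24.4 ± 15.1% at day 14, 7.59 ± 3.95% at day 3 and 6.79 ± 7.84% in the untreated facial nucleus (SD, n = 4 mice each), with no test. In untreated mice it was 12.9 ± 8.03% in spinal cord, 22.3 ± 7.79% in cerebellum, 35.9 ± 11.8% in cortex, 39.0 ± 12.5% in hippocampus and 41.8 ± 8.88% in corpus callosum, so the day 14 share lay within the range of untreated regions. The day 3 and day 14 cells shared a plate, and the untreated cells were on another.

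In the untreated facial nucleus 2 genes fell in positive cells, 0.0169% of the 11849 tested, and 0 rose. They are named, as is Mau2 next, after their values were seen. Fcrls, a microglial Fc receptor-like gene, stood at 214 and 0.719 scaled CPM in the positive cells of mice 2 and 3 against 1422 and 238 in negative cells (adjusted p = 0.000132 in edgeR's test). Golt1b, a Golgi transport protein, had 0 counts in both positive sums (3 counts being 2.16 scaled CPM in mouse 3), with 224 and 391 scaled CPM in negative cells (adjusted p = 0.0132 in edgeR's test). At day 14 Fcrls stood at 8.66, 242, 375 and 548 scaled CPM in positive and 566, 694, 67.2 and 322 scaled CPM in negative cells, lower in 2 of 4 mice.

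The test of the difference between the 2 contrasts called 2 of 20982 genes (0.00953%), both with the larger positive-minus-negative difference at day 14. For Lyz2 the untreated positive sums of mice 2 and 3 held 40.0 and 0 scaled CPM (48 and 0 counts, 3 counts being 2.16 scaled CPM in the second) against 118 and 102 scaled CPM in negative cells, opposite in direction to day 14 (adjusted p = 0.0109 in edgeR's test). Mau2, a cohesin loader, had 0 counts in both untreated positive sums against 250 and 226 scaled CPM in negative cells, and at day 14 stood at 697, 153, 137 and 237 against 108, 166, 88.3 and 165 scaled CPM (adjusted p = 0.046 in edgeR's test). Both calls rest on 6 and 5 positive cells of the untreated mice, and both were lost under upper-quartile scaling, with thinned cells, with no filter on low counts, and without day 14 mouse 1, day 14 mouse 3 or facial nucleus mouse 3. Mau2 alone was also lost without day 14 mouse 4 or facial nucleus mouse 2. In the 20 mouse and region pairs of untreated brain and spinal cord with at least 5 cells in each class, over 6 regions, Lyz2 was higher in the Apoe-positive cells of 18, at a median ratio of 2.06, and B2m in 11 of 20 at a median ratio of 1.04. The 2 pairs of the 20 in which Lyz2 was not higher were those of the facial nucleus.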

How the data were processed

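The values are read counts per gene in single wells. The authors aligned the reads with STAR 2.5.2b and counted them with featureCounts 1.5.1 on GRCm38, per the submitters' processing notes, and the counts were used as deposited. No molecular identifiers were used. The intervals given are on numbers of cells and cover the error of counting cells only. Wells with at least 20000 gene counts, at least 500 genes, under 25% mitochondrial and under 50% spike-in counts were kept, and no doublet caller was run. Counts were summed per mouse and Apoe class, with Apoe left out, and fitted in edgeR 4.0.16 (R 4.3.3) with TMM scaling, its default filter on low counts, the robust quasi-likelihood test and mouse as a block, with Benjamini-Hochberg adjustment at 0.05. Both classes of a mouse come from the same labelled animal, which is the source of the pairing. DESeq2 1.42.0 and limma 3.58.1 were alternatives. The edgeR and DESeq2 fits, but not limma, were also run on simulated sums. Those sums had the same dispersion for all genes and no difference between mice other than depth. They cannot tell how the fits behave where a single cell holds much of a gene's reads. Of 48709 gene identifiers, 48349 matched a symbol.

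Named were called genes, otherwise the 10 with the smallest p in each direction, and a panel of Apoe neighbours, microglial, lipid, lysosomal, interferon and other cell type genes. The members, lists and panel were chosen with earlier results of these data known.

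Some genes of the panel are not reported here.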

Additional observations from a re-analysis of the deposited data

Results flagged for a closer look

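Among the 27 genes and the share of positive cells examined for a mouse far from the other 3, Tyrobp in mouse 2 stood apart. Its log2 ratio of positive to negative cells was -0.30 there, while the other 3 mice had higher levels in positive cells. That sign is found after TMM scaling only: by upper quartile and by library size alone Tyrobp was higher in 4 of 4 mice. Chance puts about 1 in 20 such groups past this limit, and mouse 2 has 3 positive cells.

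The difference between positive and negative cells was larger at day 14 than in the untreated facial nucleus for Lyz2 (by 7.67 ± 1.53 on the log2 scale, SE, adjusted p = 0.0109 in edgeR's test) and for Mau2 (by 13.74 ± 2.99, SE, adjusted p = 0.046 in edgeR's test). In untreated positive cells 1 of the 2 sums was at 0 counts for Lyz2 and both were for Mau2, so neither size is a bound.

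Outside the day 14 cells, the 4 wells labelled negative on the cuprizone plate held 227 Apoe reads among 2644 gene counts, with 46 to 71 in each well. The 4 such wells of the plate with the axotomy cells held 0 Apoe reads among 2365 gene counts.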

How the results depend on the processing

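At day 14 the main count was 1 gene higher and 0 lower. The number higher was 0 without the mouse block, 0 with upper-quartile scaling, 0 with no filter on low counts, 0 over genes detected in 20% of cells, 0 at an Apoe threshold of 200 CPM, 0 without cells with border macrophage markers (113 cells left), 0 with limma and 0 in one fit with day 3 and the facial nucleus. It was 68 of 13019 genes with DESeq2, which called 652 lower, and 1 gene was lower with thinned cells. Leaving out a mouse gave 0 to 15 higher, with 15 without mouse 2. Of the alternatives chosen after seeing the data, an Apoe threshold of 1000 CPM gave 6, library size alone 2, and leaving out the cell with the highest Apoe of each mouse 0. In the untreated facial nucleus the count of 2 became 0 without the replicate block, 7 with DESeq2 (5 higher and 2 lower, where the main 2 were lower), 1 with upper-quartile scaling, 4 with no filter and 1 with thinned cells. The 2 genes of the difference test became 224 with DESeq2, 0 with upper-quartile scaling, 0 with no filter, 0 with thinned cells, and 0 to 11 when a mouse was left out (0 without day 14 mouse 3, 11 without day 14 mouse 2, 1 without facial nucleus mouse 2).

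Over 27 genes, 508 of 535 fold changes kept their direction. With upper-quartile scaling P2ry12 became 0.33, Tmem119 0.33, Cx3cr1 0.19, Trem2 0.73 and Axl 1.11 (log2). Axl was otherwise 3.44 with no replicate block, 0.36 over genes detected in 20% of cells, 0.59 against cells with 0 Apoe reads, 1.19 thinned, 2.01 with limma, and 1.80 at 1000 CPM. Trem2 was 0.045 with no block, 0.0057 with DESeq2 and 0.24 with limma. Without the cells with the highest Apoe, Ctsd was -0.11, Ctsl -0.41, Cd9 -0.74, Csf1r -0.36 and Npc2 -0.31. Csf1r was -0.29 thinned. Leaving out a mouse gave -3.02 to 2.81 for Axl, -0.12 to 1.62 for H2-K1, -0.017 to 0.77 for Ctsd, -0.059 to 0.19 for Csf1r and -0.36 to 0.11 for Trem2. The cause of these shifts was not tested. The day 3 fit and the difference between day 14 and day 3 were not run, since 1 day 3 mouse met the minimum of 5 cells in each class set for comparison groups, nor was leaving out a mouse in the facial nucleus fit of 2 mice. The 3 positive cells of mouse 2 limit the depth most.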
